A study of Mus musculus with 6 samples.

Results

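*Arg1*, *Chil3*, *Retnla*, *Ear2*, *Nos2*, *Il4ra*, *Tgm2* and *Pdcd1lg2* are 8 mouse genes commonly measured to follow macrophage polarization. They were chosen with earlier results of these data known. Each was picked by symbol (*Chil3* also carries the older symbol *Chi3l3*). They were matched to NCBI gene numbers among the 17441 genes listed in any of 6 heart libraries. All 8 were listed in at least 1 library, and 7 of them entered the test, which took the 13120 genes with a value of at least 1 in at least 2 libraries. *Pdcd1lg2* stayed below that level throughout. *Arg1*, *Chil3* and *Ear2* passed it only through the infarct libraries, so the calls of *Arg1* and *Chil3* against sham tissue were partly set by the filter.

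Heart tissue taken below the ligature at day 3 after surgery gave the RNA, from male mice aged 12 weeks by the labels, and each of the 3 groups had 2 libraries. WT Sham were wild-type mice given the operation without ligation, WT MI were wild-type mice with the left anterior descending coronary artery ligated (myocardial infarction), and *Card9* KO MI were mice labelled as *Card9* knockout with the same ligation. CARD9 is an adapter protein that carries signals from innate immune receptors towards NF-κB. The knockout covered all cells of the mouse rather than macrophages alone, the labels do not describe the allele, and sham-operated *Card9* KO mice were not analysed here, so the effects of genotype and of ligation cannot be told apart where *Card9* KO MI is set against WT Sham. The labels do not say whether the libraries of a group came from separate animals, and the p-values then measure only the spread between these libraries. The tissue was whole and unsorted. In such bulk RNA, fewer cells of a type and less RNA per cell cannot be told apart.

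Macrophages exposed to bacterial products and interferon-γ take a classically activated state and make nitric oxide through the inducible synthase encoded by *Nos2*. Interleukin 4 and interleukin 13 act through a receptor that contains the *Il4ra* chain and through the transcription factor STAT6, and drive an alternatively activated state marked in mice by *Arg1*, *Chil3*, *Retnla*, *Pdcd1lg2* and *Tgm2*. Arginase 1 and nitric oxide synthase compete for the same amino acid, arginine. In tissue, several of these genes are also expressed by other cells, among them neutrophils and monocytes (*Chil3*), adipocytes (*Retnla*), and endothelial cells and fibroblasts (*Tgm2*).

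Values are FPKM, fragments scaled to transcript length and to the total of the library, which is a level per gene length and can be compared between genes. A value of 0 stands for a gene that the library did not list. The depth behind them was estimated from the spacing of low FPKM values at 3021845 to 4300690 fragments per library, and such estimates and intervals cover counting error only. All 14 macrophage markers (*Cd68*, *Lyz2*, *Csf1r* and others) were above 0 in every library, with a summed FPKM of 433 and 367 for WT Sham. Some were low there, the lowest being *Fcgr1* at 1.22 and 1.02. The targeted gene *Card9* (NCBI gene 332579) had an FPKM of 0.99 and 1.03 for WT Sham, 3.39 and 5.08 for WT MI, and 9.85 and 6.94 for the group labelled *Card9* KO MI. It was thus not lower in the libraries labelled as knockout (log2 fold change against WT MI 0.85, standard error, SE, 0.23, limma adjusted p = 0.11). A single value per gene says nothing of which exons were read. Because *Card9* went against its label, every direction given against WT MI rests on that label.

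In the limma fit, 4 of the 7 tested genes were called higher in WT MI against WT Sham (*Arg1*, *Chil3*, *Il4ra* and *Tgm2*) and 0 lower, where 27.7% of all tested genes were called higher and 9.39% lower. In *Card9* KO MI against WT MI, 2 of the 7 were called lower (*Chil3* and *Arg1*) and 0 higher, where 0.587% of all tested genes were called lower and 0.816% higher. At an unadjusted p below 0.05, *Tgm2* joined the lower genes for a count of 3, and the counts of 0 did not change. The genes were chosen with earlier results of these data known. Their counts set beside all tested genes, here and below, are therefore descriptions and no test of enrichment. The 2 groups of libraries did not overlap for 6 of the 7 genes between WT MI and WT Sham (70.4% of all tested genes) and for 3 of the 7 between *Card9* KO MI and WT MI (52.7%), so separation alone was common in these data. The median log2 fold change of the 7 genes was 1.39 between WT MI and WT Sham and −0.25 between *Card9* KO MI and WT MI, against 0.19 and 0.05 for all tested genes.

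**Figure D1:**
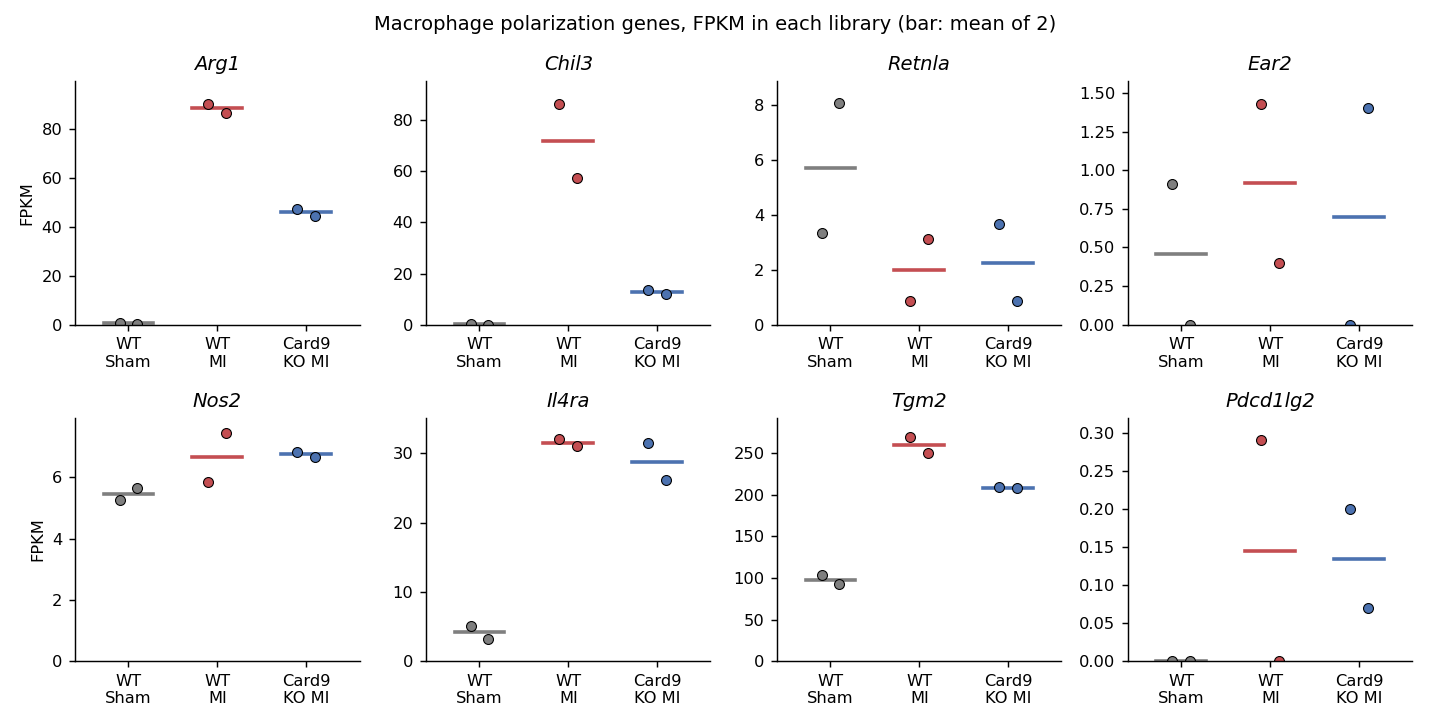
FPKM (vertical axes, linear, each from 0) of the 8 genes in each library of WT Sham (grey), WT MI (red) and the group labelled Card9 KO MI (blue), with points for the 2 libraries of a group and a bar for their mean. *Arg1* and *Chil3* were close to 0 for WT Sham, highest in WT MI and intermediate in Card9 KO MI, *Il4ra* and *Tgm2* were higher in both infarct groups, and the libraries of *Ear2* overlapped in all groups.

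*Arg1* (NCBI gene 11846; minus strand of mm9 chromosome 10, from 24635014 to 24647276) encodes the liver-type arginase, which splits arginine into ornithine and urea. Its FPKM was 0.64 and 0.45 for WT Sham, 90.27 and 86.3 for WT MI, and 47.43 and 44.34 for *Card9* KO MI. The WT Sham values correspond to about 3 and 2 fragments, and the infarct values to 270 to 538. The 3 groups were fully separate, with WT MI on top and *Card9* KO MI at about the middle of the scale. Over the fragments of both libraries, the ratio of WT MI to WT Sham was 161, with a counting interval of 68.8 to 497 (exact, 95%). On the log2(FPKM + 1) scale, which understates the change of low genes, *Arg1* rose by 5.86 (SE 0.12, adjusted p = 9.7e-07) in WT MI and by 4.93 (adjusted p = 8.7e-07) in *Card9* KO MI, both against the same WT Sham libraries. Between the infarct groups it was lower in *Card9* KO MI, with a ratio of mean FPKM of 0.52 and a log2 fold change of −0.93 (95% interval −1.21 to −0.65, adjusted p = 0.021). This call was lost when any 1 of the 4 infarct libraries was left out (adjusted p from 0.063 to 0.18), while the log2 fold change stayed between −0.98 and −0.88.

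*Chil3* (NCBI gene 12655; minus strand of mm9 chromosome 3, from 105950472 to 106022425) encodes Ym1, a secreted chitinase-like protein that binds carbohydrate and lacks chitinase activity. Its FPKM was 0.2 in 1 WT Sham library, the other did not list the gene (taken as 0), and it was 86.47 and 57.22 for WT MI and 13.71 and 12.11 for *Card9* KO MI. The sham values rest on 1 fragment in all, and the infarct values on about 537, 346, 91 and 77 fragments. The WT MI libraries differed from each other more than for *Arg1*, and the lower of them was still several times the higher *Card9* KO MI library. The ratio of fragments between WT MI and WT Sham was 686, with a counting interval of 123 to 27100 that shows how little a single sham fragment fixes. Against WT Sham, *Chil3* was called higher in both infarct groups, in WT MI (log2 fold change 6.03, SE 0.21, adjusted p = 5.8e-06) and in *Card9* KO MI (3.66, adjusted p = 2.1e-05).

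Between the infarct groups *Chil3* had the largest difference of the 8 genes, with a log2 fold change of −2.36 (95% interval −2.85 to −1.87, adjusted p = 0.0073) and a ratio of mean FPKM of 0.18. Without WT MI replicate 1, the higher of the WT MI libraries, the log2 fold change was −2.07 and the adjusted p 0.051, so that *Chil3* and *Arg1* were then both uncalled. Both calls were also lost with 0.1 in place of 1 added to FPKM (adjusted p = 0.069 for *Chil3* and 0.061 for *Arg1*) and without the filter on low values (0.057 and 0.079), and that of *Arg1* without the variance trend of limma (0.055). The ratio of *Chil3* to *Arg1* FPKM in a library was 0.96 and 0.66 for WT MI and 0.29 and 0.27 for *Card9* KO MI, without overlap.

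The mm9 gene model of *Chil3* overlaps that of its neighbour *Chil4* (older symbol *Chi3l4*), and the coding sequences of the pair are 95.3% identical, so reads can be shared between them. *Chil4* was listed in 1 library only, at an FPKM of 0.22 for WT MI replicate 2. Of the other chitinase family genes, *Chil1* reached 0.6 for WT MI and *Chil6* 0.14 for *Card9* KO MI, and *Chil5*, *Chit1* and *Chia1* were listed in no library. Practically all chitinase family signal in these hearts was thus assigned to *Chil3*.

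*Il4ra* (NCBI gene 16190; plus strand of mm9 chromosome 7, from 132695785 to 132722986) encodes the receptor chain shared by interleukin 4 and interleukin 13. Its FPKM was 5.13 and 3.25 for WT Sham, 32 and 30.99 for WT MI, and 31.45 and 26.08 for *Card9* KO MI. Both infarct groups were well above WT Sham and overlapped each other. The log2 fold change was 2.67 (SE 0.19, adjusted p = 7e-05) in WT MI and 2.54 (adjusted p = 4.7e-05) in *Card9* KO MI against WT Sham. Between the infarct groups it was −0.13 with a 95% interval of −0.56 to 0.30 (adjusted p = 0.74), which leaves room for a modest difference in either direction.

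*Tgm2* (NCBI gene 21817; minus strand of mm9 chromosome 2, from 157942138 to 157972172) encodes tissue transglutaminase, which crosslinks proteins of the extracellular matrix, and was the most abundant of the 8 genes in every library. Its FPKM was 103.01 and 93.25 for WT Sham, 269.38 and 249.51 for WT MI, and 209.44 and 207.42 for *Card9* KO MI. The groups were separate, and the replicates within each lay close together. *Tgm2* rose by 1.39 on the log2 scale (SE 0.09, adjusted p = 5.8e-05) in WT MI and by 1.08 (adjusted p = 8.8e-05) in *Card9* KO MI. Its log2 fold change between *Card9* KO MI and WT MI was −0.31 (95% interval −0.53 to −0.10, unadjusted p = 0.01), which missed the threshold after adjustment over all genes in limma (adjusted p = 0.13). The mm9 model of *Tgm2* overlaps *Rprd1b* and a processed transcript on the plus strand, and whether the counting used strand is not given in the sources used here.

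*Nos2* (NCBI gene 18126; plus strand of mm9 chromosome 11, from 78734289 to 78773756), the classical activation gene among the 8, was not called in any comparison. Its FPKM was 5.26 and 5.65 for WT Sham, 5.84 and 7.45 for WT MI, and 6.81 and 6.67 for *Card9* KO MI, on about 70 to 123 fragments per library. Both infarct groups lay just above the sham libraries, and the *Card9* KO MI libraries fell inside the range of WT MI. The log2 fold change was 0.24 (95% interval −0.14 to 0.61, adjusted p = 0.29) in WT MI against WT Sham, and −0.05 after quantile normalization. Between *Card9* KO MI and WT MI it was 0.03 (95% interval −0.35 to 0.40, adjusted p = 0.95), and it turned to −0.01 after upper-quartile scaling and −0.07 after quantile normalization. No direction is therefore given for *Nos2*.

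The ratio of *Arg1* to *Nos2* in a library does not change when a library is multiplied by a single factor, though quantile normalization can change it. It was 0.12 and 0.08 for WT Sham, 15.5 and 11.6 for WT MI, and 6.96 and 6.65 for *Card9* KO MI. The 3 groups did not overlap in it, and since *Nos2* was nearly level, this order is that of *Arg1*.

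*Retnla* (NCBI gene 57262; plus strand of mm9 chromosome 16, from 48842665 to 48844574) encodes RELMα or FIZZ1, a secreted resistin-like protein. Its mean was highest in sham tissue, with an FPKM of 3.32 and 8.07 for WT Sham, 0.86 and 3.11 for WT MI, and 3.65 and 0.85 for *Card9* KO MI. These values rest on about 6 and 15 fragments in WT Sham and on 2 to 9 in the infarct libraries. WT MI did not overlap WT Sham while *Card9* KO MI did. The replicates of every group differed by more than 2-fold, and the log2 fold change of −1.18 (95% interval −2.46 to 0.11) was not called (adjusted p = 0.13). The interval between the infarct groups was wide (log2 fold change 0.09, 95% interval −1.20 to 1.37, adjusted p = 0.95). Summed FPKM of the 7 adipocyte markers, another cell type known to express *Retnla*, was 8.08 and 5.98 for WT Sham, 17.2 and 4.92 for WT MI, and 1.27 and 12.1 for *Card9* KO MI, and its part in the *Retnla* values was not tested.

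Among the other resistin-like genes, *Retnlg*, a neutrophil-expressed relative with a coding sequence 84.2% identical to that of *Retnla*, had an FPKM of 0.54 and 0.56 for WT Sham, 2.12 and 3.48 for WT MI, and 1.99 and 1.24 for *Card9* KO MI, and was called higher in WT MI against WT Sham (log2 fold change 1.27, adjusted p = 0.0074). *Retn*, which encodes resistin, did not enter the test and ranged from 0 to 2.13. *Retnlb* was listed in no library.

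*Ear2* (NCBI gene 13587; plus strand of mm9 chromosome 14, from 44680319 to 44681199) encodes an eosinophil-associated ribonuclease. Its FPKM was 0.91 and 0 for WT Sham, 1.43 and 0.4 for WT MI, and 0 and 1.4 for *Card9* KO MI, or at most about 4 fragments. Each group held a library near or at 0, and no difference could be detected at this depth (adjusted p from 0.55 to 0.83 in the 3 comparisons). Its coding sequence is 97.0% identical to that of *Ear10* and 95.7% to that of *Ear1*, so even these few fragments cannot be placed with certainty. *Ear1* was listed at 0.52 for WT MI replicate 2 only, *Ear10* at 0.16 for WT MI replicate 2 and 0.52 for *Card9* KO MI replicate 1, and *Ear6* and *Ear14* were listed in no library. Among the more distant ribonucleases of the family, *Rnase4* was 28.07 and 28.6 for WT Sham and 42.25 to 64.56 in the infarct libraries, and *Ang* 0.83 and 1.84 against 2.66 to 9.34. *Rnase4* and *Ang* were called higher in WT MI against WT Sham (log2 fold changes 0.64 and 1.15, adjusted p = 0.0076 and 0.032) and neither between the infarct groups. *Rnase6* ranged from 0.3 to 3.44 and was not called in either comparison (adjusted p = 0.15 and 0.44). The eosinophil genes *Prg2* and *Epx* were listed in no library, and the 6 eosinophil markers summed to 0.44 to 1.91.

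*Pdcd1lg2* (NCBI gene 58205; plus strand of mm9 chromosome 19, from 29485409 to 29545647) encodes PD-L2, a ligand of the inhibitory T cell receptor PD-1. It was not listed in either WT Sham library nor in WT MI replicate 2, and had an FPKM of 0.29 in WT MI replicate 1 and of 0.2 and 0.07 for *Card9* KO MI, all below the worth of 3 fragments (0.42 to 0.6). It was not tested. The other ligand, *Cd274* (PD-L1), was 4.84 and 4.43 for WT Sham, 3.28 and 3.64 for WT MI, and 3.4 and 3.86 for *Card9* KO MI. It was not called in either comparison (adjusted p = 0.15 and 0.90). *Pdcd1*, the receptor, did not exceed 0.74.

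**Figure D2:**
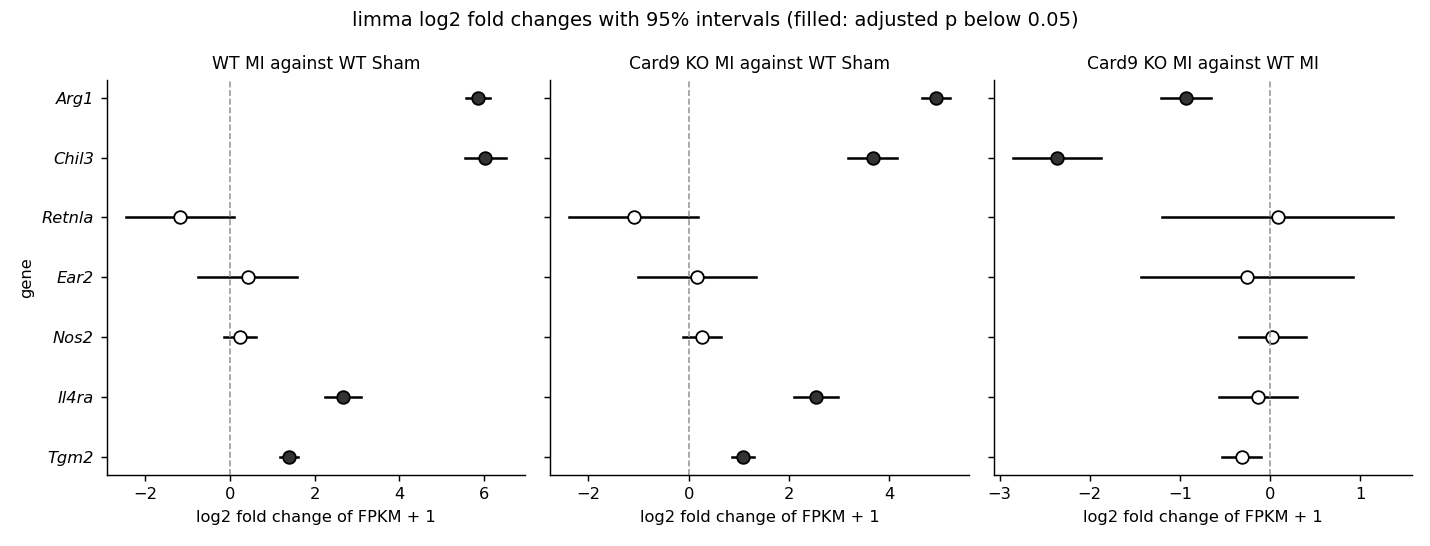
Log2 fold changes of FPKM + 1 (horizontal axes, limma) with 95% intervals for the 7 tested genes in 3 comparisons, with filled points for an adjusted p below 0.05. *Arg1*, *Chil3*, *Il4ra* and *Tgm2* are filled in both comparisons with WT Sham, only *Arg1* and *Chil3* are filled between the infarct groups, and the intervals of *Retnla* and *Ear2* are the widest.

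The comparison of *Card9* KO MI with WT Sham gave the same 4 calls as that of WT MI with the same sham libraries. It called 4 of the 7 genes higher and 0 lower, where 34.8% of all tested genes were higher and 14.3% lower, and 5 of the 7 did not overlap, where 76.1% of all tested genes did not. *Nos2* (log2 fold change 0.26, adjusted p = 0.21), *Retnla* (−1.09, adjusted p = 0.14) and *Ear2* (0.17, adjusted p = 0.81) were not called.

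The order of the levels differed between the groups. In WT Sham it ran *Tgm2*, *Retnla*, *Nos2*, *Il4ra*, *Arg1*, *Ear2*, *Chil3* and *Pdcd1lg2* by mean FPKM, where *Retnla* overlapped *Nos2*, and the last 4 were each within the spread of their neighbour. *Tgm2* stood at the 94.9th percentile of tested genes there, and *Arg1* at the 4.8th. In WT MI *Arg1* and *Chil3* moved up behind *Tgm2*, to the 93.7th and 92.2nd percentile, and overlapped each other. In *Card9* KO MI *Arg1* kept its place (87.3rd percentile), and *Chil3* fell behind *Il4ra* to the 59.4th.

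Markers of myeloid cells also differed between the groups. All 14 macrophage markers were called higher in WT MI against WT Sham, led by *Lgals3*, *Cd68*, *Itgam* and *Fcgr1* (log2 fold changes 4.91, 3.41, 3.17 and 2.99). Their summed FPKM was 1580 and 2020 for WT MI and 3230 and 2340 for *Card9* KO MI. It was thus higher, not lower, in the libraries labelled as knockout, with 13 of 14 log2 fold changes above 0 (median 0.73), although limma called 0 of the 14 (8 higher at an unadjusted p below 0.05). Of the 6 monocyte markers, 6 were called higher in WT MI against WT Sham and 0 between the infarct groups (1 higher at an unadjusted p below 0.05), with a summed FPKM of 78 and 69.7 for WT MI and 86 and 92.9 for *Card9* KO MI.

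Divided by the macrophage markers of the same library, *Arg1* was 5.72% and 4.28% of their summed FPKM in WT MI and 1.47% and 1.89% for *Card9* KO MI, against 0.15% and 0.12% for WT Sham. *Chil3* was 5.48% and 2.84% for WT MI and 0.42% and 0.52% for *Card9* KO MI. *Il4ra* was 2.03% and 1.54% for WT MI and 0.97% and 1.11% for *Card9* KO MI, and the latter overlapped WT Sham (1.18% and 0.88%). *Tgm2* and *Nos2* were also lower per macrophage marker in *Card9* KO MI, at ratios of the group means of 0.52 and 0.67. Unlike their FPKM, both were also lower per macrophage marker in WT MI than in WT Sham, without overlap: *Tgm2* was 23.8% and 25.4% for WT Sham and 17.1% and 12.4% for WT MI, and *Nos2* 1.21% and 1.54% for WT Sham and 0.37% and 0.37% for WT MI. With the resident macrophage and monocyte markers as the divisor, *Tgm2* was instead higher in WT MI, at a ratio of 1.17 to WT Sham, and *Nos2* remained lower, at 0.54. In WT Sham that divisor rests largely on *Gas6*, at 52.95 and 53.2 where the resident markers summed to 93.7 and 92.4. Ratios without *Gas6* were not computed. Between the infarct groups, with that divisor, *Arg1* and *Chil3* kept ratios of 0.51 and 0.18 and stayed separate, *Tgm2* and *Il4ra* moved to 0.78 and 0.89, and *Nos2* overlapped. These ratios are descriptions of whole tissue and were not tested.

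Neutrophil markers changed in the same direction as *Chil3*, most of them by less between the infarct groups. Of 10 such genes, 8 were listed and 6 tested, and all 6 were called higher in WT MI against WT Sham. Their summed FPKM was 7.64 and 5.4 for WT Sham, 212 and 93.2 for WT MI, and 59.8 and 46.7 for *Card9* KO MI, and as for *Chil3*, WT MI replicate 1 held the highest value. All 6 had a log2 fold change below 0 between the infarct groups (median −0.61), and limma called 0 of them (2 at an unadjusted p below 0.05). *S100a8* and *S100a9* came closest (−1.73 each, adjusted p = 0.094 each), and the granule genes *Camp* and *Elane* were listed in no library. *Csf3r*, *Cxcr2*, *Retnlg* and *Mmp8* lay between −0.64 and −0.50 (limma adjusted p from 0.26 to 0.33), where *Chil3* had −2.36. In WT MI, *S100a8* and *S100a9* made up most of the sum, with 68.91 and 94.04 in replicate 1 and 25.26 and 39.24 in replicate 2. Ratios to the neutrophil markers without *S100a8* and *S100a9* were not computed. Per neutrophil marker, a divisor chosen after these values were seen, *Chil3* was 40.8% and 61.4% for WT MI and 22.9% and 25.9% for *Card9* KO MI, so it stayed lower there. *Arg1* was 42.6% and 92.6% for WT MI and 79.3% and 94.9% for *Card9* KO MI, so the groups then overlapped. These ratios are descriptions, and the part of neutrophils in either difference was not tested.

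**Figure D3:**
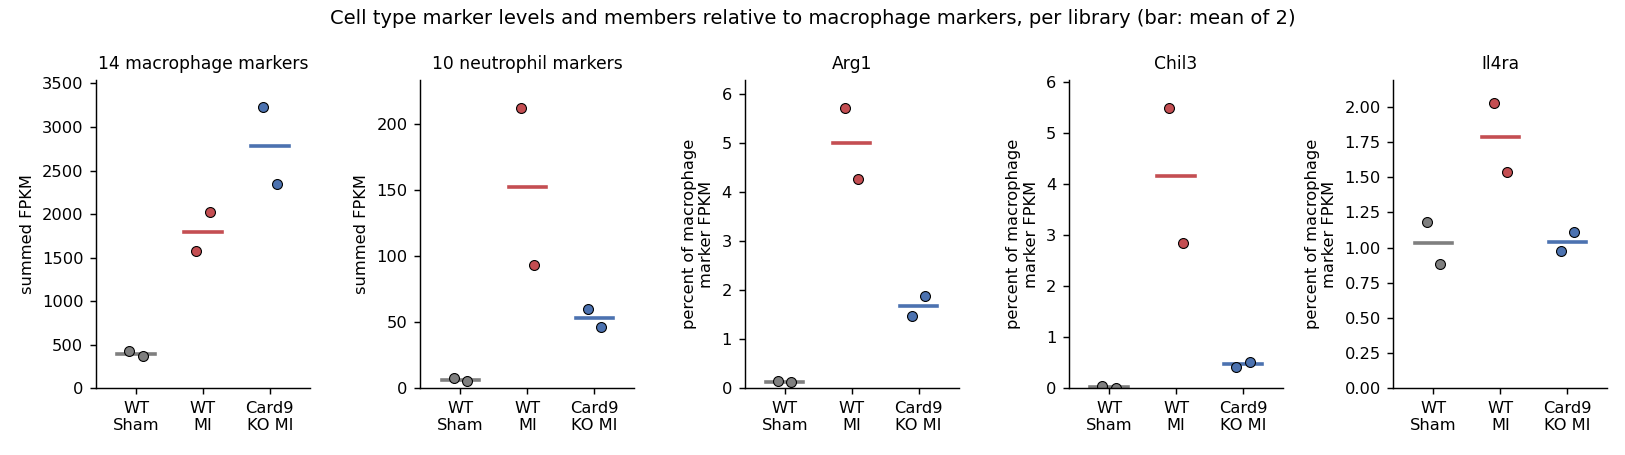
Summed FPKM of 14 macrophage and 10 neutrophil markers (panels at the left) and *Arg1*, *Chil3* and *Il4ra* as a percent of the macrophage marker sum of the same library (panels at the right), with points for libraries and bars for the mean of 2. Macrophage markers were highest and neutrophil markers intermediate in Card9 KO MI, where *Arg1* and *Chil3* per macrophage marker lay between 0.42% and 1.89%, below the 2.84% to 5.72% of WT MI.

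Of 16 other genes of alternative activation, 12 were tested, and 5 were called higher and 1 lower in WT MI against WT Sham, with a median log2 fold change of 0.80. *Mmp12*, a macrophage elastase, rose by 3.36, *Egr2* by 1.76, the mannose receptor gene *Mrc1* by 1.49 and the lectin gene *Clec10a* by 1.19. Between *Card9* KO MI and WT MI, limma called 0 of the 12 (2 higher and 2 lower at an unadjusted p below 0.05), and 7 of 12 log2 fold changes were above 0 (median 0.11). The 2 higher were *Egr2* (log2 fold change 0.75) and *Pparg* (0.62). The 2 lower were *Mgl2* (−0.76, FPKM 6.68 and 5.69 against 11.18 and 11.13 for WT MI) and *Cd163* (−1.03, 3.37 and 3.1 against 10.34 and 5.59). Their limma adjusted p ran from 0.057 to 0.16. The *Mrc1* level was 20.77 and 23.49 for WT MI and 29.79 and 22.4 for *Card9* KO MI (0.22 on the log2 scale, adjusted p = 0.49).

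Of the interleukin 4 and interleukin 13 pathway, the cytokine genes *Il4* and *Il13* were listed in no library. Of 13 pathway genes, *Il4ra* not among them, 10 were tested and 5 were called higher in WT MI against WT Sham. These were *Il33*, an alarm cytokine that induces type 2 responses (log2 fold change 2.79), the common γ chain *Il2rg* (1.54), the receptor chain *Il13ra1* (0.84), the kinase *Jak3* (0.62) and *Stat6* itself (0.46), which is also on the list of alternative activation genes. *Stat6* was 20.03 and 19.26 for WT Sham, 29.13 and 25.65 for WT MI, and 28.22 and 25.55 for *Card9* KO MI. Between the infarct groups limma called 0 of the 10, also at an unadjusted p below 0.05 (median log2 fold change 0.02).

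Of 20 classical activation genes besides *Nos2*, 16 were tested, and 12 were called higher in WT MI against WT Sham and 1 lower (median log2 fold change 1.07). *Il6* rose by 2.70, *Il1b* by 2.34, *Fpr2*, a formyl peptide receptor, by 2.15, and *Ptgs2*, the inducible cyclooxygenase, by 1.83. The interferon-induced chemokine *Cxcl9* was the 1 called lower (−0.72, adjusted p = 0.019). Between *Card9* KO MI and WT MI, limma called 0 of the 16 (4 higher and 1 lower at an unadjusted p below 0.05), and 11 had a log2 fold change above 0 (median 0.27). The 1 lower was *Fpr2* (−1.255, limma adjusted p = 0.073), with an FPKM of 0.72 and 1.51 against 4.63 and 3.37 for WT MI.

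Genes of arginine and nitric oxide metabolism bear on the substrate that *Arg1* and *Nos2* share. Of 12 such genes, 10 were tested and 5 were called higher in WT MI against WT Sham. *Ass1*, which rebuilds arginine from citrulline, rose by 2.26 on the log2 scale. *Odc1*, the first enzyme from ornithine to polyamines, rose by 0.98, the arginine transporter gene *Slc7a2* by 0.88, and *Ddah1*, which degrades inhibitors of nitric oxide synthase, by 0.79. Between the infarct groups 1 of the 10 was called, and it was higher. This was *Ddah1*, with an FPKM of 6.48 and 6.8 for WT MI and 21.52 and 20.56 for *Card9* KO MI (1.53 on the log2 scale, adjusted p = 0.0095). *Arg2*, the mitochondrial arginase, did not exceed 1.23 in any library and was not tested, and *Nos3*, the endothelial synthase, was not called (0.40 for WT MI against WT Sham, adjusted p = 0.099).

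Of the other transglutaminases, *F13a1*, the coagulation factor XIII chain made by macrophages, was 15.52 and 11.97 for WT Sham, 52.59 and 47.59 for WT MI, and 37.41 and 33.16 for *Card9* KO MI. It was called higher in WT MI against WT Sham (log2 fold change 1.80, adjusted p = 0.00013) and, although its infarct groups were separate, not called between them (−0.49, adjusted p = 0.12). *Tgm1* was low, at most 1.29, and called higher in WT MI against WT Sham (0.85, adjusted p = 0.044). *Tgm3* did not exceed 0.24, and *Tgm5* was listed in no library.

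**Figure D4:**
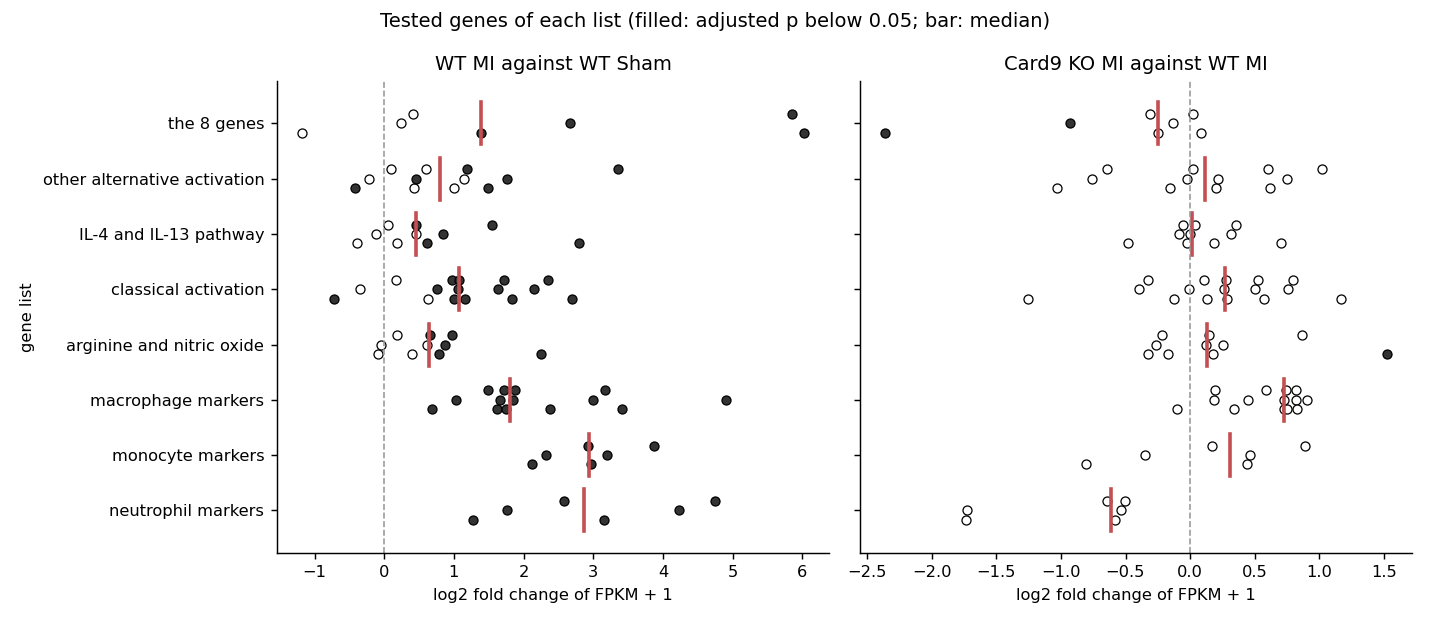
Log2 fold changes of FPKM + 1 (horizontal axes) for the tested genes of the 8-gene group and 7 other lists (vertical axis), in WT MI against WT Sham (left) and Card9 KO MI against WT MI (right), with filled points for an adjusted p below 0.05 and red bars for medians. In the right panel the filled points are *Chil3* (−2.36) and *Arg1* (−0.93) at the left and *Ddah1* (1.53) at the right, and the macrophage and neutrophil marker medians lie at 0.73 and −0.61.

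For each of the 7 tested genes, the genes with the most similar profile were found by the root mean square difference between log2(FPKM + 1) values over the 6 libraries, each gene centred on its mean. For *Arg1* these were *Timp1*, an inhibitor of metalloproteinases, at a difference of 0.26, the protease gene *Adam8* (0.54) and the monocyte chemokine *Ccl2* (0.56). These 3 differed in how they compared between the infarct groups. *Timp1* had an FPKM of 299.16 and 253.84 for WT MI and 239.26 and 196.87 for *Card9* KO MI. *Adam8* had 38.97 and 40.91 for WT MI and 52.52 and 38.86 for *Card9* KO MI, with overlap and a higher mean in the latter. *Ccl2* had an FPKM of 120.82 and 147.28 for WT MI and 81.8 and 78.12 for *Card9* KO MI. For *Chil3* they were *S100a9* (0.58), *Arg1* (0.66) and *AA467197* (0.74), the last not listed in either WT Sham library and at 21.71 and 20.03 for WT MI, and 11.84 and 10.42 for *Card9* KO MI. The nearest gene to *Chil3* differed from it more than *Timp1* did from *Arg1*.

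For the other members, *Il4ra* was nearest to *Apbb1ip* (0.12), *Sdc1* (0.12) and *Rtn4* (0.14), *Tgm2* to *Sfxn5* (0.06), the gene with NCBI number 11641 (0.06) and *Medag* (0.07), and *Nos2* to *Osbpl8* (0.03), *Ggcx* (0.04) and *Sharpin* (0.04). *Retnla* was nearest to *Gm6416* (0.31), *Klhl33* (0.37) and *Rtp3* (0.40), and *Ear2* to *Pdzk1* (0.18), *Adgrg3* (0.28) and *Ttll3* (0.29), all low genes whose profiles rest on few fragments.

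Promoter sequence (the 250 bases before the start, RefSeq, GRCm38.p6) was at hand for *Chil3*, *Retnla*, *Ear2*, *Pdcd1lg2* and *Il4ra*, 5 of the 8 genes. Both strands were searched for the letters of 4 transcription factors. The STAT6 letters TTCNNNNGAA were found in *Retnla* and *Pdcd1lg2* and in 5.85% of 32851 promoters of the same length. The C/EBP letters TTGCNNAA were found in *Retnla* and *Ear2* (9.56% of promoters), the PU.1 letters GAGGAA in *Retnla* and *Pdcd1lg2* (23.3%), and the NF-κB letters GGGANNNNCC in *Chil3* and *Pdcd1lg2* (17.6%). None of the 4 was found in *Il4ra*. Of these promoters 3 are shown, because the 2 with STAT6 letters belong to genes that stayed low, and the one without them to the gene with the largest difference between the infarct groups. Capitals mark every match, and in *Pdcd1lg2* the PU.1 match lies inside the STAT6 match.
*Retnla* (GRCm38.p6, chr16:48842359-48842608, plus strand): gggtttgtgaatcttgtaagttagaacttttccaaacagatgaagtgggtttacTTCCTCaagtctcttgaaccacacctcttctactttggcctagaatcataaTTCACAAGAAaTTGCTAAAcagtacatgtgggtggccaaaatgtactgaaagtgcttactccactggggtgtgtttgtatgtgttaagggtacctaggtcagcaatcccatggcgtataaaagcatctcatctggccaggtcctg
*Pdcd1lg2* (GRCm38.p6, chr19:29410669-29410918, plus strand): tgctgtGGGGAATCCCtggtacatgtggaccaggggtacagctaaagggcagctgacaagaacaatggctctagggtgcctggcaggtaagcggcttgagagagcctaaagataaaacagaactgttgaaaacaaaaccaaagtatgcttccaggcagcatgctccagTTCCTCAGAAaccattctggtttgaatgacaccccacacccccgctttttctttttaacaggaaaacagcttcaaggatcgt
*Chil3* (GRCm38.p6, chr3:106167565-106167814, minus strand): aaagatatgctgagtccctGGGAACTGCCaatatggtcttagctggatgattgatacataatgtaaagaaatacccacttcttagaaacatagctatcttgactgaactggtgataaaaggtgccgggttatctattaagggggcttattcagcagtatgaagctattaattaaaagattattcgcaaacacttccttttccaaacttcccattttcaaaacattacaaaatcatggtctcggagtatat
In *Retnla* the STAT6 match TTCACAAGAA begins 145 bases before the start and is followed, after 1 base, by the C/EBP match. In *Pdcd1lg2* the STAT6 match TTCCTCAGAA begins 82 bases before the start, and in *Chil3* the NF-κB match GGGAACTGCC begins 231 bases before it. A match describes letters and is no evidence that a factor was bound, and an absent match concerns only this window.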

How the data were processed

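The 6 libraries, 2 per group, were grouped by genotype and treatment labels. Per the study's methods, the authors selected mRNA, used an Illumina HiSeq instrument and mapped filtered reads to mm9 with BWA and Bowtie2. They deposited FPKM for each NCBI gene number, to 2 decimals and without genes at 0, which were set to 0 here. Tool versions, gene annotation and strand setting are not given in the sources used here.

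limma 3.58.1 in R 4.3.3 (lmFit, eBayes with trend) was run on log2(FPKM + 1) with the 3 groups in 1 fit without covariates. It took genes reaching FPKM 1 in at least 2 libraries, with Benjamini-Hochberg adjustment over all 13120 and calls at adjusted p below 0.05, and was tested on simulated data. Exact permutation of 2 against 2 libraries gives no p below 0.333, and none was run.

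Scaling mattered against WT Sham. For WT MI, the median over all tested genes was 0.19 as deposited, 0.00 after upper-quartile scaling and −0.07 after quantile normalization, and calls (higher, then lower) numbered 3637 and 1232, 2603 and 2159, and 2288 and 2416. For *Card9* KO MI they numbered 4569 and 1875, 3230 and 2884, and 2841 and 3409.

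Only 69.8% to 75.0% of low FPKM values were whole fragments within 0.15, so no count test was run. The same limit holds for the counting intervals of *Arg1* and *Chil3*. They are exact binomial intervals on estimated fragments, rounded and pooled over the libraries of a group. Symbols came from a GRCm38.p6 table (1 list gene, *Ear7*, was not matched), positions and coding sequences from GENCODE vM1 on mm9, and identities from pairwise alignment (Biopython 1.88). The 8 genes and 20 other lists were chosen with earlier results of these data known. Named genes are the 8, *Card9*, family members, up to 4 called genes with the largest change per list, defining markers near 0, and the 3 nearest profiles per gene. *Mrc1* between the infarct groups, *Arg2*, *Nos3*, and the *Stat6*, *S100a8* and *S100a9* values were added after they were seen. So were *Egr2*, *Pparg*, *Mgl2*, *Cd163*, *Pdgfra*, *Fpr2*, *Csf3r*, *Cxcr2*, *Retnlg* and *Mmp8* between the infarct groups, and *Fcgr1* and *Gas6* for WT Sham. Alternatives were other pseudocounts (0.1 or 5), filters and scalings, eBayes without trend, a fit of only the groups compared, a replicate block, a fold threshold, other marker lists and each library left out.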

Additional observations from a re-analysis of the deposited data

How the results depend on the processing

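The rise of *Arg1*, *Chil3*, *Il4ra* and *Tgm2* against WT Sham kept its direction and call in both infarct groups in all 16 alternatives. The count of the 8 genes called lower in *Card9* KO MI than in WT MI, 2 as reported, depended on the settings: it was 0 with 0.1 added to FPKM and 0 without the filter on low values, 1 without the variance trend (*Chil3*) and 1 with a fold change of at least 2 required (*Chil3*), and 0 to 2 with each library left out in turn, 0 without WT MI replicate 1 (the library left alone in its group is then assumed to vary like the others). The causes were not tested. The log2 fold change stayed between −0.98 and −0.88 for *Arg1*, which lost its call in 7 of 16 alternatives, and between −2.65 and −2.07 for *Chil3*, which lost it in 3 of 16.

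The sign of *Nos2* turned with quantile normalization (−0.053 for WT MI and −0.12 for *Card9* KO MI against WT Sham, −0.067 between the infarct groups) and with upper-quartile scaling between the infarct groups (−0.007), where leaving out libraries gave −0.13 to 0.18. *Ear2* ranged over left-out libraries from −0.05 to 0.88 in WT MI and from −0.30 to 0.80 in *Card9* KO MI against WT Sham (−0.012 with quantile normalization), and from −0.65 to 0.38 between the infarct groups. *Retnla* ranged from −0.58 to 0.75 there (−0.006 with quantile normalization). Per neutrophil marker, a divisor added after seeing the data, *Arg1*, *Nos2*, *Il4ra* and *Tgm2* had a higher mean in *Card9* KO MI than in WT MI, by 0.37, 1.25, 1.17 and 1.01 on the log2 scale, where their means were lower per macrophage marker, and the libraries of *Arg1* overlapped. That divisor rests in large part on *S100a8* and *S100a9*, and these directions were not checked without them.

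The replicate numbers did not pair the libraries: deviations of same-numbered libraries from their group means correlated at −0.01 to 0.02 over 13120 genes. With the replicate number as a block, 2 of the genes were still called lower in *Card9* KO MI than in WT MI, *Arg1* at an adjusted p of 0.041 and *Chil3* at 0.0097, and no other call of the 7 genes changed. Depth limits *Ear2*, *Retnla* and *Pdcd1lg2*, which rest on at most 15 fragments per library.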

Other observations

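Lists of other cell types gave a setting for the 8 genes. Of 7 resident cardiac macrophage markers tested, limma called 1 higher and 1 lower between the infarct groups. *Cx3cr1* was higher in *Card9* KO MI than in WT MI (FPKM 16.33 and 15.96, where WT MI had 6.08 and 8.18, log2 fold change 1.09, limma adjusted p = 0.034). *Lyve1* was lower (4.7 and 6.84 against 12.57 and 14.38, −1.11, adjusted p = 0.037). Most of this list lay lower in *Card9* KO MI, with 2 of 7 log2 fold changes above 0 (median −0.18). At an unadjusted p below 0.05, 1 was higher and 3 were lower. Of 6 fibroblast markers, 5 were called higher in WT MI against WT Sham. Between the infarct groups, *Postn* (1.57) and *Col1a1* (1.06) were called higher in *Card9* KO MI than in WT MI. *Pdgfra* went the other way without overlap (10.64 and 10.43 against 15.2 and 15.87) and was not called (−0.52, limma adjusted p = 0.094). Of the 6, 4 had a log2 fold change above 0, and 3 were higher and 1 lower at an unadjusted p below 0.05. Of 7 cardiomyocyte markers, 5 were called lower in WT MI against WT Sham, led by *Mb* (−1.18), and 0 between the infarct groups (3 lower at an unadjusted p below 0.05). Dendritic cell markers had 2 of 5 tested genes called higher in WT MI against WT Sham (*Itgax* and *Fscn1*), and endothelial markers 2 of 6 higher and 1 lower, *Kdr* (−0.68). Between the infarct groups limma called 0 of either list. Log2 fold changes there were above 0 for 5 of 5 dendritic cell markers (median 0.50, 2 higher at an unadjusted p below 0.05). For endothelial markers 5 of 6 were above 0 (median 0.09, 1 higher at an unadjusted p below 0.05). Adipocyte markers (3 tested), T and B cell markers (2 tested) and the 1 tested eosinophil marker had no call by limma in either comparison (at an unadjusted p below 0.05, *Siglecf* was higher in WT MI against WT Sham).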
